A study of Mus musculus with 2 samples.

Results

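The genes described here encode the transcription factor ATF4, targets of ATF4, and the enzymes and transporters that supply cells with amino acids. They are Atf4, Ddit3, Trib3, Ddit4, Asns, Psat1, Phgdh, Slc7a5, Slc3a2 and Slc1a5. All 10 are on the array, of 18193 genes with at least 1 probe set that the platform annotation assigns to a single gene, and 20 probe sets represent them. They were selected on their place in the pathway with the DNR and WT signals of these arrays already known, so their signals and ratios are a description.

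Total RNA of splenic regulatory T cells (Tregs), a CD4+ T cell lineage set by the transcription factor Foxp3 that holds immune responses in check, was hybridised to Affymetrix mouse 3′ expression arrays, with 1 array per genotype. The first RNA came from DNR mice, whose dominant negative TGF-beta receptor II blocks responses to the cytokine TGF-beta. The second came from wild-type (WT) mice. Both groups were 10 weeks old, on the C57BL/6 background, and their Tregs were sorted by flow cytometry. No treatment is given in the labels. The sources used here do not give the promoter that drives the DNR transgene, the number of mice behind each RNA or the way Foxp3+ cells were recognised during the sort. The sorting protocol text of both samples names DNR mice, while the title, source name and genotype of the second sample all name WT mice; the genotype labels were followed.

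With 1 array per genotype there is no test of a difference, no standard deviation and no p-value. The differences below are between 1 RNA preparation and another. That there are 2 arrays limits the precision. The only spread that could be measured is that between probe sets of the same gene on these arrays, a robust SD of 0.39 on the log2 scale over 3968 genes. It holds no variation between mice, sorts or hybridisations. In bulk RNA, fewer cells with a transcript and less transcript per cell cannot be told apart.

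ATF4 is the effector of the integrated stress response. Kinases that sense amino acid shortage, endoplasmic reticulum stress, viral RNA or haem shortage phosphorylate the translation factor eIF2. General translation then slows, while Atf4 mRNA is translated more, so the level of Atf4 mRNA is not a measure of ATF4 protein. ATF4 binds C/EBP-ATF composite sites and switches on genes for amino acid synthesis, amino acid import and tRNA charging, together with its own feedback regulators. T cells that grow and divide depend on this supply, and activated T cells raise Slc7a5, Slc3a2 and Slc1a5.

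The core of the C/EBP-ATF composite site, TGATGNAA, was searched on both strands of the RefSeq promoter windows of mouse build GRCm38.p6. Each window runs from 250 bases before to 50 bases after a gene's start. Of the members, 8 had a window (9 windows, as Psat1 has 2), and Slc7a5 and Slc1a5 had no entry. The core was found in 2 of the 9 windows, those of Asns and Trib3, and in 3.97% of all 32851 windows. The sequences that precede the starts of Asns, Trib3 and Psat1 are shown. That of Asns holds a match of the core, and those of Trib3 and Psat1 hold matches of a second string given below. The sequences are written 5′ to 3′ on the gene's strand, with matches in capitals. Asns lies on the minus strand (chr6:7693210-7693459), Trib3 on the minus strand (chr2:152344061-152344310) and the Psat1 window with a match on the minus strand (chr19:15925060-15925309).
Asns: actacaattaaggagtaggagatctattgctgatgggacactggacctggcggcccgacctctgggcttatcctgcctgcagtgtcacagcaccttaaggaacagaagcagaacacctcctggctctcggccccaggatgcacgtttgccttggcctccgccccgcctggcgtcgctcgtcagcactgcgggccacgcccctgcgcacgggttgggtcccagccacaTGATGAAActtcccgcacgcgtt
Trib3: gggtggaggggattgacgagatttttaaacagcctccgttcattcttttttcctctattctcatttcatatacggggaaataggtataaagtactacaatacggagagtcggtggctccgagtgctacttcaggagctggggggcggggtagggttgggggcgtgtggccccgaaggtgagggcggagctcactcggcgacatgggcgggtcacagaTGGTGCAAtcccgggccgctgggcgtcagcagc
Psat1: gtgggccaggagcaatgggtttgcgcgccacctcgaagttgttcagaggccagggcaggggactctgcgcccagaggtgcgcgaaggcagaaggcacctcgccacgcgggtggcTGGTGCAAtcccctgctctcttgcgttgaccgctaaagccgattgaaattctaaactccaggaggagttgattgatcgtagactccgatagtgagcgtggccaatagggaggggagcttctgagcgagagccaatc
In the Asns window the core reads TGATGAAA and begins 23 bases before the start. In the Trib3 window the core lies on the opposite strand, as TGATGTAA, beginning 14 bases after the start and thus outside the stretch shown. A second string, TGGTGNAA, which differs from the core by 1 letter, was added after the sequences had been read. It was found as TGGTGCAA 33 bases before the start of Trib3 and 136 bases before that of Psat1, in 3.23% of all windows, and overlapped no match of the core in these genes. No match of either string was found in the windows of Atf4, Ddit3, Ddit4, Phgdh and Slc3a2. These are matches of letters, and binding was not measured.

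The signals are MAS5 intensities, a linear-scale value that combines the probes matched to a transcript with their mismatched controls. Signals under a floor of 110.9, the higher of the arrays' medians, were set to the floor before log2 ratios of DNR over WT were taken. For each gene the probe set with the highest mean over both arrays was used, and the gene counted as measured if either array exceeded the floor there. All 10 members were measured, 9 of them on both arrays, among 11927 measured genes in all. Ratios with 1 array at the floor are lower bounds, marked "at least". Signals of different probe sets are not comparable as levels, so only the ratio between the arrays is compared.

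Asparagine synthetase was the member with the largest difference, and the large neutral amino acid transporter gene Slc7a5 went the other way. By their brightest probe sets, 8 of the 10 members had a higher signal in DNR Tregs and 2 a lower one, while 51.4% of all measured genes had a higher one. Part of both shares is fixed by the floor. The 1813 genes above it on the DNR array alone, Asns among them, are higher by construction, and the 833 on the WT array alone lower. The number of members higher was 7 of 10 by the median over probe sets and with quantile normalization, and 6 of 9 without probe sets open to cross-binding. At a threshold of 2-fold, 1 member was higher in DNR Tregs, beside 4.0% of all 11927 measured genes, and 1 was lower, beside 2.93% of all measured genes. At 1.5-fold, 2 members were higher (12.8% of measured genes) and 1 was lower (9.85% of measured genes). At 3-fold, 1 member was higher (0.47% of measured genes) and 0 were lower (0.528% of measured genes). At each threshold the higher members include Asns, which was above the floor on the DNR array alone. The shares are over all measured genes, 9281 of which were above it on both arrays. They are therefore not shares among genes measured in the way Asns was. The median log2 ratio of the members was 0.31, against 0.01 over all measured genes. Most members therefore differed by less than 2-fold, and so did the median.

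**Figure D1:**
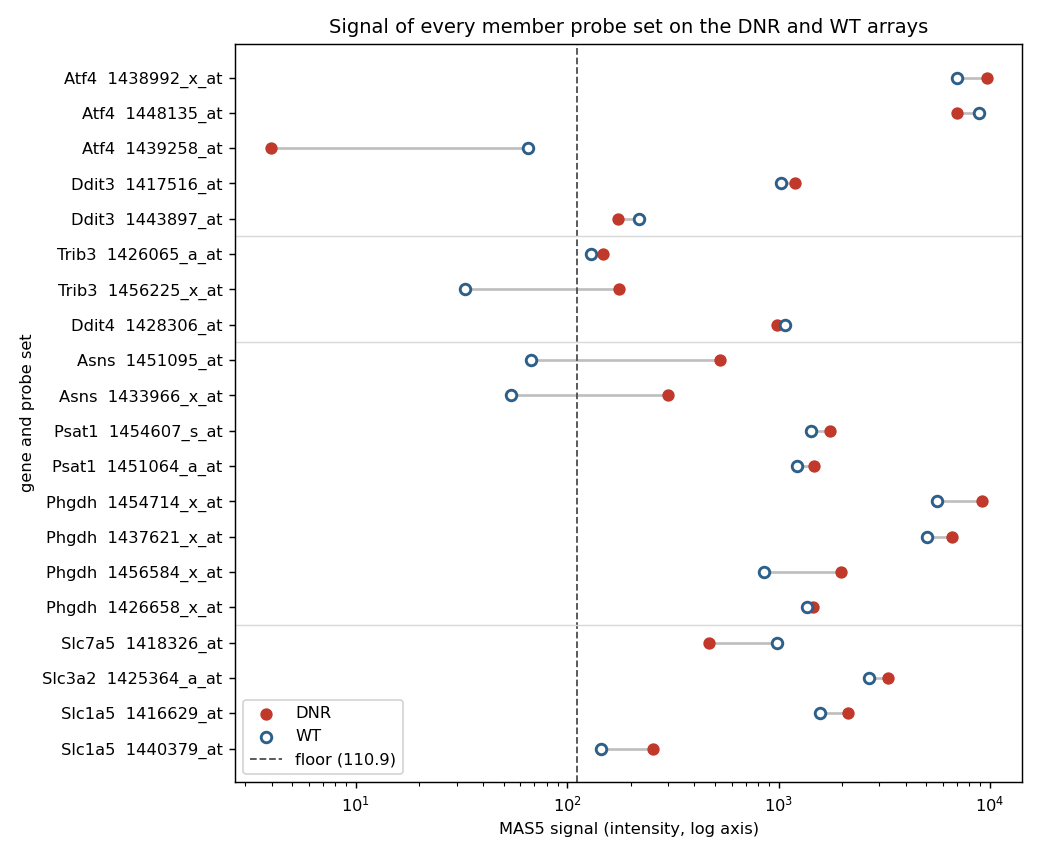
MAS5 signal (log axis) of each of the 20 member probe sets on the DNR array (filled) and the WT array (open), with the floor of 110.9 as a dashed line. Both Asns probe sets were above the floor on the DNR array and below it on the WT array, and Slc7a5 was dimmer on the DNR array; most other pairs of points lie close together.

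The transcription factor genes of the pathway had similar signals on both arrays. On its brightest probe set, Atf4 had 9648 in DNR Tregs and 7010 in WT Tregs, 1.38-fold higher. Its second probe set went the other way, with 6977 in DNR and 8873 in WT Tregs, a log2 ratio of -0.35. The brightest one carries the suffix x, which marks probes that can bind other transcripts, and the second does not. The remaining Atf4 probe set was below the floor on both arrays. The direction of Atf4 is therefore not settled by these probe sets. Ddit3, which encodes CHOP, a transcription factor that ATF4 induces under prolonged stress, had 1191 in DNR and 1029 in WT Tregs. This is a 1.16-fold difference, and its dimmer probe set went the other way with 173 in DNR and 219 in WT Tregs (log2 ratio -0.34). Both Ddit3 differences were smaller than the spread between probe sets of a gene.

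The feedback regulators differed little on their brightest probe sets, and Trib3, near the floor, had a larger difference on its other one. Trib3, a pseudokinase that ATF4 and CHOP induce and that restrains them, had 147 in DNR and 129 in WT Tregs on its brightest probe set, a log2 ratio of 0.19. That small difference turned to -0.05 with quantile normalization. Its other probe set, which can bind other transcripts, had 176 in DNR Tregs and 32.8, under the floor, in WT Tregs, at least 1.59-fold higher. Ddit4, also called REDD1, an inhibitor of the growth kinase complex mTORC1, had 979 in DNR and 1073 in WT Tregs, a log2 ratio of -0.13. Ddit4 has a single probe set, so this value has no second reading.

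Asns, which makes asparagine from aspartate with the nitrogen of glutamine, was above the floor in DNR Tregs alone. Its brightest probe set gave 525.6 in DNR and 67.0 in WT Tregs, at least 4.74-fold higher. Its other probe set had 299.9 in DNR and 54.4 in WT Tregs, at least 2.70-fold higher. Both readings thus put the DNR array above the floor and the WT array below it, and the brightest one does not carry a suffix for probes that bind several transcripts. The size of the Asns difference depends on where the floor is set. A floor at the 40th percentile gave a log2 bound of 2.81 and one at the 60th a bound of 1.65. By the median over both probe sets it was 1.84.

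Of the serine synthesis enzymes, the members Phgdh and Psat1 were higher by less than 2-fold on their brightest probe sets. Psph, the phosphatase of the last step and no member, had 1209 in DNR and 1211 in WT Tregs. Phgdh encodes phosphoglycerate dehydrogenase, the first enzyme of the pathway that makes serine from a glycolytic intermediate. It had 9176 in DNR and 5608 in WT Tregs, 1.64-fold higher. Its other 3 probe sets were higher too, by log2 ratios of 1.20 (1972 in DNR against 857 in WT), 0.39 (6605 against 5029) and 0.09 (1454 against 1362). The 4 readings had the same sign but ranged from near equality to 2.30-fold. All 4 carry the suffix x, so none is free of probes that can bind other transcripts. Another 2 probe sets that the annotation assigns to Phgdh together with a predicted gene were not counted as members and had log2 ratios of 0.46 and 0.61. Psat1, the aminotransferase of the next step, had 1753 in DNR and 1417 in WT Tregs on its brightest probe set, 1.24-fold higher. Its second had 1466 in DNR and 1219 in WT Tregs, 1.20-fold higher. The Psat1 readings differed by less than the spread between probe sets, and neither reached 1.5-fold.

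**Figure D2:**
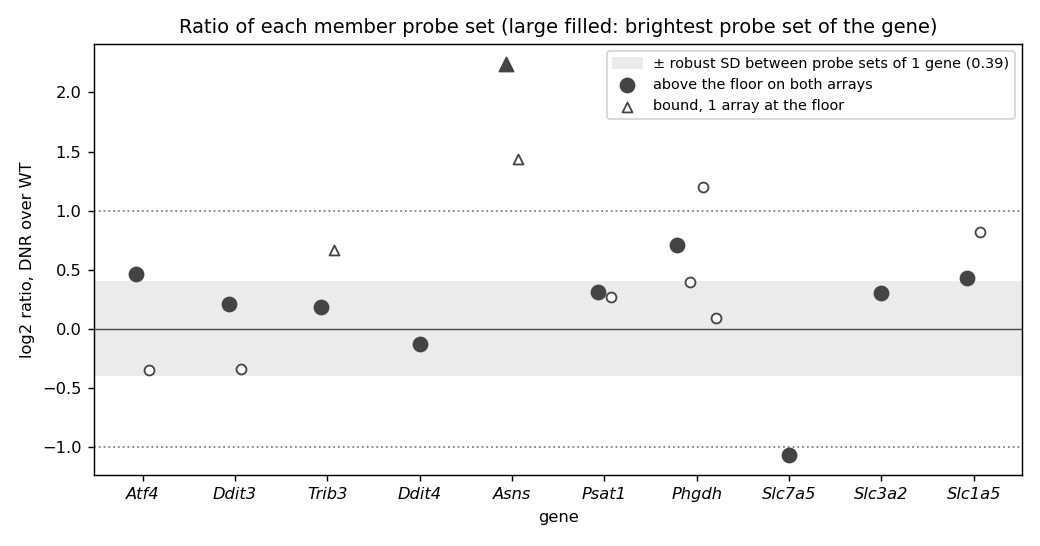
Log2 ratio of DNR over WT for each member probe set above the floor on at least 1 array; large filled symbols are the brightest probe set of a gene, triangles are bounds with the WT array at the floor, and the grey band is ± 0.39, the robust SD between probe sets of a gene. The readings of Asns (2.24 and 1.44) and Slc7a5 (-1.07) lie past 2-fold (dotted), those of Atf4 and Ddit3 lie on both sides of 0, and those of Phgdh spread from 0.09 to 1.20.

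The amino acid transporters did not go one way. Slc7a5 encodes LAT1, the light chain that carries large neutral amino acids such as leucine. Its signal was 466 in DNR Tregs, against 979 in WT Tregs, which is 2.10-fold lower. Of 9281 genes that exceeded the floor in both genotypes, 196 had a log2 ratio at or below its -1.07, itself included. Slc7a5 has a single probe set, which carries no suffix for cross-binding, and both its signals exceed every floor used. Changes of the floor or the probe set therefore could not alter its log2 ratio. Under the alternatives that changed the scaling, it lay between -1.44 and -1.04. Among genes of similar mean signal, from 388 to 909, 3.71% were lower by at least 2-fold and 3.02% were higher. Slc3a2 encodes CD98, the heavy chain that pairs with LAT1 at the cell surface. Slc3a2 had 3300 in DNR and 2673 in WT Tregs on its single probe set, 1.23-fold higher. The genes of the 2 chains thus had opposite signs by these signals. The Slc3a2 log2 ratio of 0.30 is, however, smaller than the spread of 0.39 between probe sets of a gene. It was -0.07 when signals were scaled to the poly-A spike-in controls, so its sign is not settled. Slc1a5 encodes ASCT2, a carrier of glutamine and other small neutral amino acids. Its brightest probe set had 2125 in DNR and 1577 in WT Tregs, 1.35-fold higher, and its dimmer one had 256 in DNR and 145 in WT Tregs, 1.76-fold higher. Both Slc1a5 readings were higher in DNR Tregs and neither reached 2-fold.

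**Figure D3:**
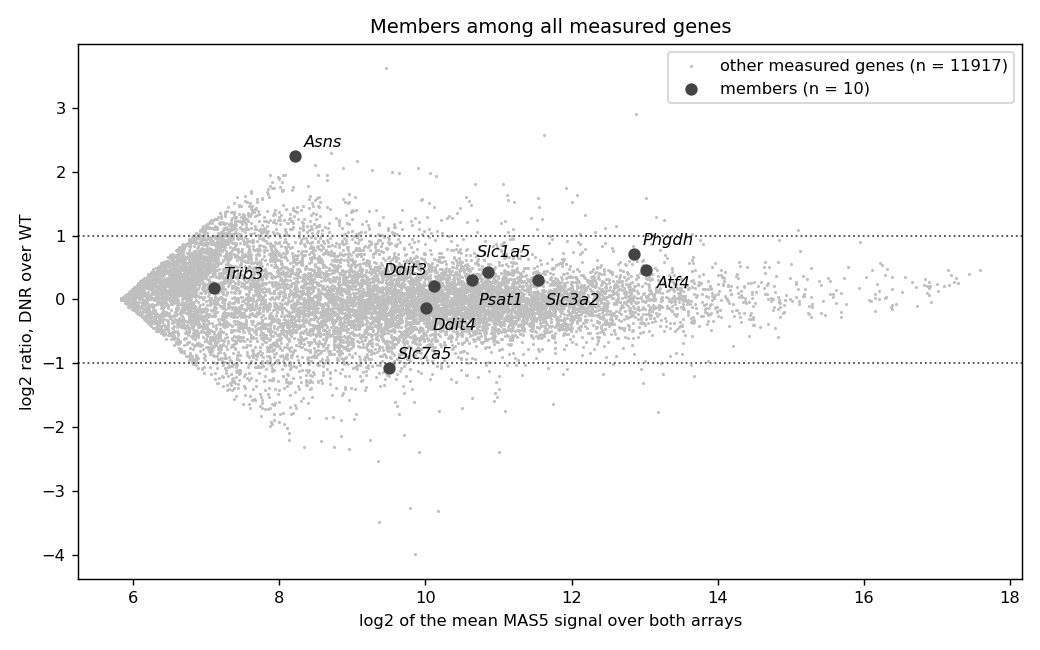
Log2 ratio of DNR over WT against the log2 mean signal over both arrays for the 10 members (labelled) and 11917 other measured genes, with 2-fold as dotted lines. Asns lies on the upper left edge, which is where genes with the WT array at the floor fall by construction, Slc7a5 just passes the lower line, and the other 8 members lie inside the lines.

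Further genes of the same biology were counted from lists, and none of the 7 pathway lists had a median of 2-fold in either direction. Of 27 further ATF4 target genes on the array, 20 were measured: 13 were higher in DNR Tregs and 7 lower, 1 in each direction by at least 2-fold, with a median of 0.15. Stc2, a secreted glycoprotein of the stress response, had 271 in DNR and 67.0, under the floor, in WT Tregs, at least 2.44-fold higher. Bbc3, which encodes the cell death protein PUMA, had 147 in DNR Tregs against 357 in WT Tregs and was 2.43-fold lower. Sesn2 had a log2 ratio of -0.90 on its brightest probe set and of at least 1.37 on its other one. The other 7 genes, Chac1, Nupr1, Cth, Cbs, Slc7a11, Slc6a9 and Fgf21, named after their values were seen, were below the floor on both arrays. The TGATGNAA core was present in promoter windows of 11 of the 26 genes of this list that had one, 31.4% of their 35 windows, beside 3.97% of all windows. It was found for 5 of 15 synthetase genes, 2 of 27 other transporter genes and 0 of 16 serine, glycine and one-carbon genes with a window. The target list was drawn up from genes known as ATF4 targets, and ATF4 binds this site. Its higher share was thus to be expected beforehand and is no result of these arrays.

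In the lists for sensing and relaying stress and for tRNA charging, no measured gene reached 2-fold on its brightest probe set. Single genes went either way. Dimmer probe sets of some genes did pass 2-fold, with signals over the floor in both genotypes. Their log2 ratios were 1.16 for Wars1, -1.04 for Farsb, -1.16 for Dnajc3, 1.40 for Atf6 and -1.08 for Derl2. The counts and ranges that follow are of brightest probe sets. All 16 genes of the eIF2 list on the array, which holds the 4 eIF2 kinases, were measured, 7 higher and 9 lower, none by 2-fold, with a median of -0.03 and ratios from -0.49 to 0.59. Its brightest members encode eIF2 subunits: Eif2s2 had 12222 in DNR and 11733 in WT Tregs, and Eif2s3x had 6755 in DNR and 7231 in WT Tregs. The cytosolic aminoacyl-tRNA synthetases, which charge tRNAs and include many ATF4 targets, had a median of 0.02 over 21 genes, with 12 higher, 9 lower, none past 2-fold and ratios from -0.81 to 0.29. Qars1, for glutamine, had 6112 in DNR and 5071 in WT Tregs. Hars1, for histidine, had 6703 in DNR and 5678 in WT Tregs. Of 24 measured chaperone and XBP1 or ATF6 target genes, which serve the other arms of the endoplasmic reticulum stress response, 16 were higher and 8 lower, none by 2-fold (median 0.12, ratios from -0.54 to 0.81). The chaperone gene Hspa5 had 38504 in DNR and 41932 in WT Tregs, and Sec61b, of the translocation channel, had 14566 in DNR and 12501 in WT Tregs.

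On their brightest probe sets, most of the remaining serine, glycine and one-carbon enzymes did not share the sign of Phgdh and Psat1. Of 11 measured genes, 9 were lower in DNR Tregs and 2 higher, with 1 lower by at least 2-fold, and the median was -0.41. The lower ones include Psph, which was near equality. When each gene was given the median of its probe sets, the list median was -0.00212. Both the size of the list median and the lean towards lower signals thus rest on the choice of probe set. Mthfd2l, a mitochondrial folate enzyme, had 162 in DNR Tregs against 370 in WT Tregs and was 2.29-fold lower, but its other readings above the floor in both genotypes were -0.16 and 0.28. Of 24 other measured amino acid transporters, 11 were higher and 13 lower (median -0.09). Slc15a4, an endolysosomal carrier of histidine and peptides, had 693 in DNR and 329 in WT Tregs, 2.11-fold higher. Slc66a1, which exports cationic amino acids from lysosomes, had 83.6, under the floor, in DNR Tregs and 265 in WT Tregs, at least 2.39-fold lower. Of 32 measured genes of amino acid sensing and mTORC1, 17 were higher and 15 lower (median 0.07). Wdr24, a subunit of the GATOR2 complex that relays amino acid signals to mTORC1, had 535 in DNR and 216 in WT Tregs, 2.48-fold higher. By brightest probe sets, Wdr24 was the single gene of that list past 2-fold. Dimmer probe sets over the floor in both genotypes passed it for Sesn3 (log2 ratio -1.09) and Seh1l (1.03). A dimmer one of Tsc1 gave a bound of -1.29. Among the other transporters, dimmer probe sets over the floor in both genotypes passed 2-fold for Slc38a10 (-1.24) and Slc6a6 (-1.09).

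**Figure D4:**
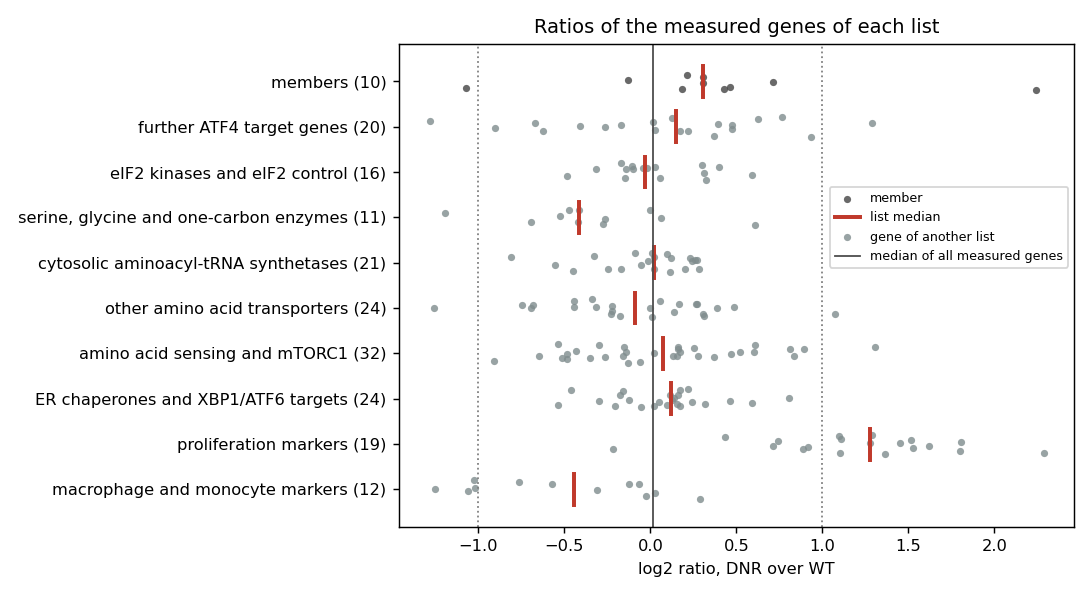
Log2 ratio of DNR over WT of the measured genes (points; number in brackets) of the members, 7 pathway lists, the proliferation markers and the macrophage and monocyte markers, with list medians as red bars, the median of all measured genes as a solid line and 2-fold as dotted lines. The pathway lists have medians between -0.41 and 0.15, while the proliferation markers have a median of 1.28.

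The label of the cells was checked against markers. All 8 Treg markers on the array were above the floor on both arrays, and 5 were higher in DNR Tregs and 3 lower; all 9 pan T cell markers were above it as well. Foxp3 had 4550 in DNR and 3754 in WT Tregs. Izumo1r, which encodes folate receptor 4, had 1734 in DNR Tregs against 3515 in WT Tregs and was 2.03-fold lower, the single Treg marker past 2-fold. Other features also differed between the arrays. With 1 array per genotype their part in the member values cannot be told apart, and it was not tested. Of 19 measured proliferation markers, 18 were higher in DNR Tregs, 13 of them by at least 2-fold (median 1.28). The mitotic genes Aurkb, Birc5, Cdc20 and Kif11 were 4.88-fold, 3.50-fold, 3.48-fold and 3.08-fold higher. Of 12 measured macrophage and monocyte markers, of 16 on the array, 10 were lower in DNR Tregs, 4 of them by at least 2-fold (median -0.44). Those 4 were C1qa (330 in DNR against 788 in WT Tregs), C1qc (185 against 386), Mrc1 (186 against 377) and Vcam1 (478 against 974). The signals of all 16 summed to 26639 in DNR and 28232 in WT Tregs, most of it from Ctss, and to 5289 in DNR and 7235 in WT Tregs without Ctss. Cd14, Cd163, Marco and Fcgr1 were below the floor on both arrays. Of 11 neutrophil markers, 4 were measured and 3 of these, Mmp9, Ngp and S100a8, were at least 2-fold higher at low signals, with sums of 1516 in DNR and 859 in WT Tregs. Ngp and S100a8 were above the floor on the DNR array alone, and the other measured marker, Elane, was lower (log2 ratio -0.46). S100a9, Camp, Ltf, Mpo, Lcn2, Cxcr2 and Csf3r were below the floor on both arrays. For the Gapdh control probe sets the 3′ to 5′ ratio was 2.28 on the DNR and 2.07 on the WT array. For beta-actin it was 6.31 on the DNR and 4.98 on the WT array. Of the measured markers, 6 of B and plasma cells, 6 of CD8 T and NK cells and 2 of erythroid cells, none had a ratio or bound of 2-fold; 4, 1 and 2 of these are bounds, whose full difference is unknown. The 18 hybridisation spike-in probe sets were 1.95-fold brighter on the DNR array at the median and the 24 poly-A spike-in probe sets 1.30-fold brighter. When DNR signals were divided by the poly-A ratio, an alternative chosen after seeing the data, the median of all measured genes moved to -0.34. This step lowers all genes above the floor by the same amount, so it leaves their order as it was. In that setting 4 of the 10 members were higher in DNR Tregs and 6 lower, and the median of the members was -0.07. The log2 ratio was at least 2.16 for Asns and -1.44 for Slc7a5.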

How the data were processed

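Gene expression of sorted splenic Tregs was measured on 2 arrays, 1 per genotype. The deposited table holds intensity values on a linear scale that the authors made with MAS5, per the submitters' processing notes. How it was scaled is not stated; the mean after trimming 2% of values at either end was 500.0 on both arrays. Of 45101 probe sets, 64 controls were set aside. The platform annotation gave a single gene to 34945 of the remaining 45037, and the other 10092 are unnamed here. The annotation's symbols were matched to the lists by symbol or older symbol. The floor of 110.9 was exceeded by 22518 probe sets in DNR and 20367 in WT Tregs; it equals the DNR median, which fixes the first count.

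Ratios, counts and medians were computed with Python 3.11.15, numpy 2.4.6 and pandas 2.3.3, and the steps were tested on simulated data. The planted changes were all well past 2-fold and in genes far above the floor on the WT array. Changes near 2-fold and genes with the WT array at the floor, such as Asns, were not covered by that test. A value with 1 array per genotype has no test, and size was judged by a threshold of 2-fold. The members and the gene lists were chosen with earlier results of these data known. All members are named with every probe set. From each other pathway list, and from the Treg, macrophage, neutrophil and proliferation lists, up to 4 genes with the largest differences of at least 2-fold are named, or the 2 brightest; other names were chosen after their values were seen. Likeness of pattern between genes cannot be measured with 2 arrays. Alternatives changed the floor (3), the probe set (2) and the scaling (2), and 1 more scaling was added after seeing the data. Promoter sequences are from RefSeq, build GRCm38.p6; the platform names no build, so no probe positions are given. Proteins were not used here.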

Additional observations from a re-analysis of the deposited data

How the results depend on the processing

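Over the 8 alternative settings, 72 of 78 single-gene values of the members moved by less than the robust SD between probe sets of a gene, and 71 kept their sign. Many of these values could not change, so the counts do not measure stability. A new floor does not alter signals above it, and a change of probe set does not alter members with a single one. The poly-A step shifts values by at most 0.37, less than the SD of 0.39. Even so, Ddit3, Trib3, Psat1 and Slc3a2 turned negative in that step. The log2 ratio of Asns came to 2.81 with a floor at the 40th percentile, 1.65 at the 60th, 2.97 with no floor and 1.84 by the median over probe sets, always at least 2-fold higher. Atf4 moved most, to -0.35 once probe sets open to cross-binding were left out, which turned its sign, and was at 0.057 by the median over probe sets. Ddit3 was -0.06 by the median over probe sets, and Trib3 was -0.05 with quantile normalization. Phgdh has no value once probe sets open to cross-binding are left out, since all of its probe sets are. Trib3 has none with the floor at the 60th percentile. At 1.5-fold, 2 members were higher; at 3-fold, 0 were lower. The median of the serine, glycine and one-carbon list was -0.00212 by the median over probe sets. That of the other transporters was -0.21 and -0.22 under floors at the 40th and 60th percentile, -0.23 with no floor and -0.19 with quantile normalization. Scaling to the poly-A spike-ins, which lowers every log2 ratio of genes above the floor by 0.37, gave medians of -0.067 for the members, -0.20 for further ATF4 targets, -0.41 for eIF2 genes, -0.72 for serine, glycine and one-carbon enzymes, -0.35 for synthetases, -0.36 for other transporters, -0.30 for amino acid sensing and -0.25 for chaperones. No paired analysis was possible because each genotype has 1 array.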
